A study of Oryzias latipes with 2 samples.

Results

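The cells described here are those that the authors' deposited annotation calls Uncharacterized, which is to say pituitary cells to which no hormone, blood or immune type was given. They were taken by that label alone. They numbered 475 of 2592 annotated cells in the female library and 817 of 3804 in the male library, or 1292 of 6396 in all. The annotation places them in 3 numbered clusters. Cluster 13 held 277 female and 410 male cells, cluster 14 held 198 female and 386 male cells, and cluster 16 held 21 male cells and no female cell.

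The data are 10x 3′ single-cell RNA counts from dissociated pituitaries of adult medaka (Oryzias latipes), a small teleost fish. The female library pooled 24 fish and the male library pooled 23 fish, all of genotype d-rR lhb:GFP and about 8 months old, with no treatment named. Both sexes carried the transgene, in which the lhb promoter drives GFP in cells that make the beta subunit of luteinizing hormone. Each sex is 1 pooled library, so sex and library cannot be told apart, cells are not replicates, and no test between sexes or clusters was made.

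The anterior pituitary is best known for its endocrine cells, each of which makes large amounts of 1 or a few peptide hormones. Lactotropes make prolactin (prl), melanotropes and corticotropes make pro-opiomelanocortin (pomca), and gonadotropes make a beta subunit (lhb or fshb) that pairs with the common alpha subunit (cga). Between them lie cells that make no hormone: in vertebrates these include folliculostellate or stem cells, pituicytes of the neural lobe, endothelium, pericytes and immune cells. Marker lists for such cell types could not be applied, because of 16 lists of gene symbols only the 8 hormone genes were paired with identifiers in full, and no other list had more than 1 paired gene. The clusters are therefore called by their numbers and leading genes.

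Fewer UMIs (unique molecular identifiers, each counting 1 captured RNA) were read in cells of these clusters than in the pooled hormone-producing cells. The median was 3607 UMIs per female cell of cluster 13 and 3208 per female cell of cluster 14. The male medians were 2822.5 in cluster 13, 2830.5 in cluster 14 and 3568 in cluster 16. The hormone-producing cells (clusters 1 to 10 and 15, with 1731 female and 2413 male cells) had medians of 4481 and 4403, though some types were lower, such as female thyrotropes at 2771 and male somatolactotropes at 2841.5. The median number of genes detected per cell was 1230 and 1301.5 in female clusters 13 and 14, and 1027.5, 1142 and 1579 in male clusters 13, 14 and 16. When each cell was thinned to 1500 UMIs, the medians were 681 and 772.5 genes in the female clusters and 659.5, 732.5 and 768 in the male clusters, against 665 and 598 in female and male hormone-producing cells. Single endocrine types held more than cluster 13, with 707 and 712.5 in gonadotrope-like and 807 and 782.5 in cga-expressing cells.

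The share of the most abundant genes was lower than in the pooled hormone-producing cells. The 50 most abundant genes held 33.8% and 28.1% of the UMIs of female clusters 13 and 14, and 33.3%, 30.3% and 28.1% in male clusters 13, 14 and 16. In hormone-producing cells the same share was 43.0% in females and 49.4% in males, but in the cga-expressing cells alone it was 29.4% and 32.1%, below cluster 13. Intronic UMIs, which are counted apart from the main table, came to 13.04 and 15.7 per 100 UMIs in female clusters 13 and 14 and to 12.5, 15.2 and 15.7 in male clusters 13, 14 and 16, against 12.91 and 12.11 in hormone-producing cells. Across the libraries 16 cell barcodes occurred in both, of which 4 female and 5 male cells were Uncharacterized and none was Uncharacterized on both sides.

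With red blood cells set aside, Uncharacterized cells made up 21.4% of 2221 female cells (exact Clopper-Pearson 95% interval 19.7 to 23.2) and 25.2% of 3245 male cells (23.7 to 26.7). Cluster 13 took 12.5% (11.1 to 13.9) in females and 12.6% (11.5 to 13.8) in males. Cluster 14 took 8.91% (7.76 to 10.2) in females and 11.9% (10.8 to 13.1) in males. With 1 library a sex, such a difference cannot be told apart from one between libraries. Cluster 16 was 0.647% of male cells (0.401 to 0.988). It held 0 of 2221 female cells, where 3 counts would be 0.135%, a value that is not an interval limit. All intervals given here cover counting error only, not the spread between fish or dissociations.

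To describe what sets each cluster apart, UMIs were summed over its cells, expressed per 10000 UMIs and divided by the level in the hormone-producing cells of the same library. A gene was considered when at least 10 UMIs were expected in the cluster, and was called at a ratio of 4 or more in either direction. A count under 3 was set to 3 for the ratio. Because the clusters were made from these same genes, the ratios describe the clusters and test nothing. The median log2 ratio over all genes considered was 0.09 and 0.36 in female clusters 13 and 14, and 0.18, 0.40 and 0.61 in male clusters 13, 14 and 16, so the typical gene lay somewhat above equality.

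In female cluster 13, 579 of 7873 genes (7.35%) were higher and 135 (1.71%) were lower. Male cluster 13 had 686 of 7791 genes higher (8.81%) and 468 lower (6.01%). Female cluster 14 had 723 of 6123 genes higher (11.8%) and 450 lower (7.35%), and male cluster 14 had 795 of 7434 higher (10.7%) and 547 lower (7.36%). In cluster 16, where fewer UMIs let 1095 genes be considered, 202 were higher (18.4%) and 69 lower (6.3%).

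The balance of higher against lower genes moved with the scaling. With the 8 hormone genes left out of the total, the counts higher and lower were 493 and 240 in female cluster 13, 626 and 577 in female cluster 14, 564 and 630 in male cluster 13, and 649 and 686 in male cluster 14. In cluster 16 they were 175 and 94. Taking the mean of cells in place of the sum gave 679 and 406 in female cluster 13. Genes without a name in the files dominate these lists: of the 60 leading genes over the 5 clusters (12 each), 8 could be paired with a name.

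Most of the genes called higher were shared by the sexes. Over 6080 genes considered in both libraries, the log2 ratios of female and male cluster 14 correlated across genes with a Spearman coefficient of 0.893. For cluster 13 the coefficient was 0.858 over 7397 genes. The cross pairs were lower, at 0.756 for female cluster 13 with male cluster 14 and 0.712 for female cluster 14 with male cluster 13. Male cluster 16 stood farther off, at 0.428 with female cluster 13 and 0.523 with female cluster 14. Genes are not independent replicates, and all clusters of a library share its comparator cells, so these coefficients carry no p-value. Of the genes called higher, 603 were shared by both cluster 14 lists, or 83.4% of the female and 75.8% of the male list. Both cluster 13 lists shared 476, or 82.2% and 69.4%. The female cluster 13 list shared 407 genes with the male cluster 14 list, or 70.3% and 51.2%. The female cluster 14 list shared 335 with the male cluster 13 list, or 46.3% and 48.8%. Measured in the other sex, the female and male cluster 13 lists had median levels in cluster 14 of 83.8% and 90.8% of those in cluster 13. Much of these lists was thus not particular to cluster 13.

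Whole profiles, with hormone genes and GFP left out and no comparator, gave a similar order. Levels of cluster 14 correlated at 0.97 between female and male, and those of cluster 13 at 0.93. Within a library clusters 13 and 14 correlated at 0.84 in females and 0.87 in males. Cluster 14 was also close to lactotrope cluster 4, at 0.83 in females and 0.85 in males, but not to the other lactotrope cluster, cluster 3, at 0.47 and 0.48. Cluster 13 correlated with lactotrope cluster 4 at 0.78 in females and 0.76 in males. Cluster 16 reached 0.66 with male cluster 13 and 0.65 with male cluster 14.

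**Figure D1:**
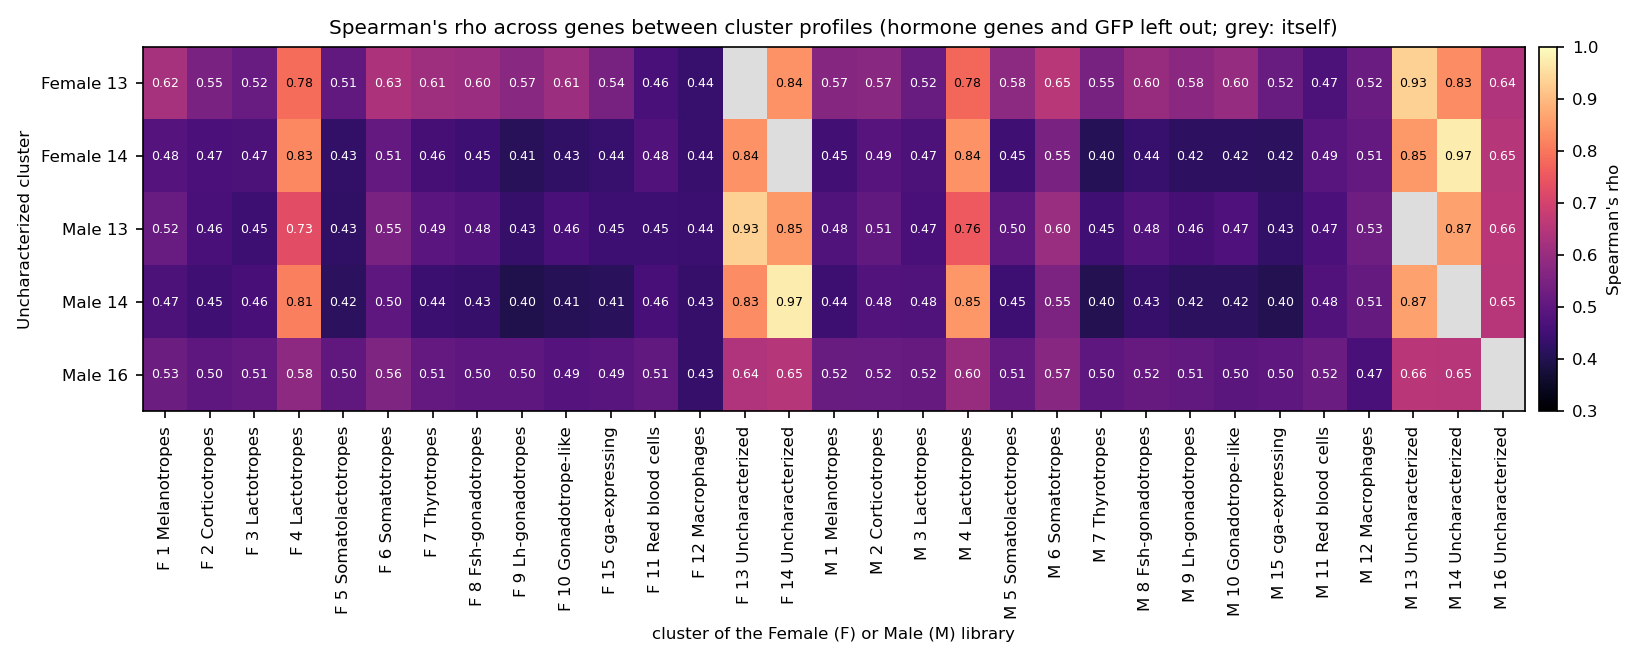
Spearman correlation across genes between the summed profile of each Uncharacterized cluster (rows) and every annotated cluster of the female (F) and male (M) library (columns), hormone genes and GFP left out, with the coefficient as colour and printed value. Clusters 13 and 14 match their counterpart in the other sex most closely (0.93 and 0.97), and cluster 14 lies nearer to lactotrope cluster 4 (0.83 and 0.85) than to lactotrope cluster 3 (0.47 and 0.48).

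By level, the first of the named genes called higher in cluster 14 was apoeb (ENSORLG00000013986), which encodes an apolipoprotein E, a carrier of lipids between cells that in the mammalian brain is made chiefly by glia. Its level was 442 UMIs per 10000 in female cells (95% Poisson interval 437 to 447) and 479 in male cells (475 to 483). Single female cells ranged from 30.3 through a median of 335 to 2250, and male cells from 29.3 through 442 to 1746. Every cell of cluster 14 held the transcript. In the hormone-producing cells the level was 17.2 in females and 41.5 in males, which put the ratio at 25.7 (25.2 to 26.2) and 11.5 (11.4 to 11.7). Lactotrope cluster 3 shows what cells with little of this RNA carried: apoeb was found in 87.0% of its female and 88.6% of its male cells, but at medians of 5.18 and 6.64 per 10000.

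Genes for a pair of enzymes were also high. Argininosuccinate lyase (asl, ENSORLG00000002500), which forms arginine in the urea cycle, was at 50.7 per 10000 (49.1 to 52.4) in female and 41.1 (40.0 to 42.2) in male cells of cluster 14. All 198 female cells and 385 of 386 male cells held it, and per cell it ran from 4.33 through 48.7 to 121 in females and from 0 through 38.9 to 99.2 in males. The ratio was 21.1 in females and 11.3 in males. In lactotrope cluster 3, 33.3% of female and 34.3% of male cells had any asl UMI, and the pooled level there was 1.37 and 1.12.

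Carbonic anhydrase 1, an enzyme that interconverts carbon dioxide and bicarbonate, was at 72.0 in female and 61.2 in male cells of cluster 14. It was detected in 99.5% of female cells and 99.7% of male cells, and its ratio was 16.2 and 9.48. It shows the same pattern as asl, high in nearly every cell of the cluster and low in lactotrope cluster 3, where it was at 1.45 and 1.62.

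Genes for membrane and secreted proteins followed. The level of mala, which encodes a MAL-family proteolipid of membrane sorting, was 26.2 and 21.9 per 10000 in female and male cells of cluster 14 (ratio 21.8 and 10.5). The level of cbln18, of the cerebellin family of secreted proteins, was 20.4 and 11.98 (25.7 and 11.6). The level of spaca4l, named for a sperm acrosome-associated protein, was 14.7 and 8.16 (30.2 and 13.4). The unassigned gene si:ch211-156l18.7 reached 23.0 and 24.5 (21.9 and 12.5). Each was thus more than 10-fold above the hormone-producing cells in both libraries.

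Among the named genes low in cluster 14 were several of endocrine cells. The common alpha subunit cga was 19.4-fold lower in females and 21.1-fold lower in males, and lhb was 16.8-fold and 17.5-fold lower. The transcription factor gene nr5a1b, a relative of steroidogenic factor 1 that marks gonadotropes, was at 0.85 in female and 0.47 in male cells, 16.8-fold and 18.6-fold lower. A metallothionein gene, mt2, whose product binds metals, was at 2.90 and 1.93, 12.11-fold and 10.9-fold lower. The brain aromatase gene cyp19b, high in cluster 16, was at 0.38 and 0.29 in cluster 14, 14.7-fold and 11.9-fold lower. Its highest cell reached 7.77 and 7.13 in cluster 14, 2.81 and 10.6 in lactotrope cluster 4, and 62.1 and 60.9 in gonadotrope-like cells. A low level of cyp19b was thus not particular to cluster 14.

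**Figure D2:**
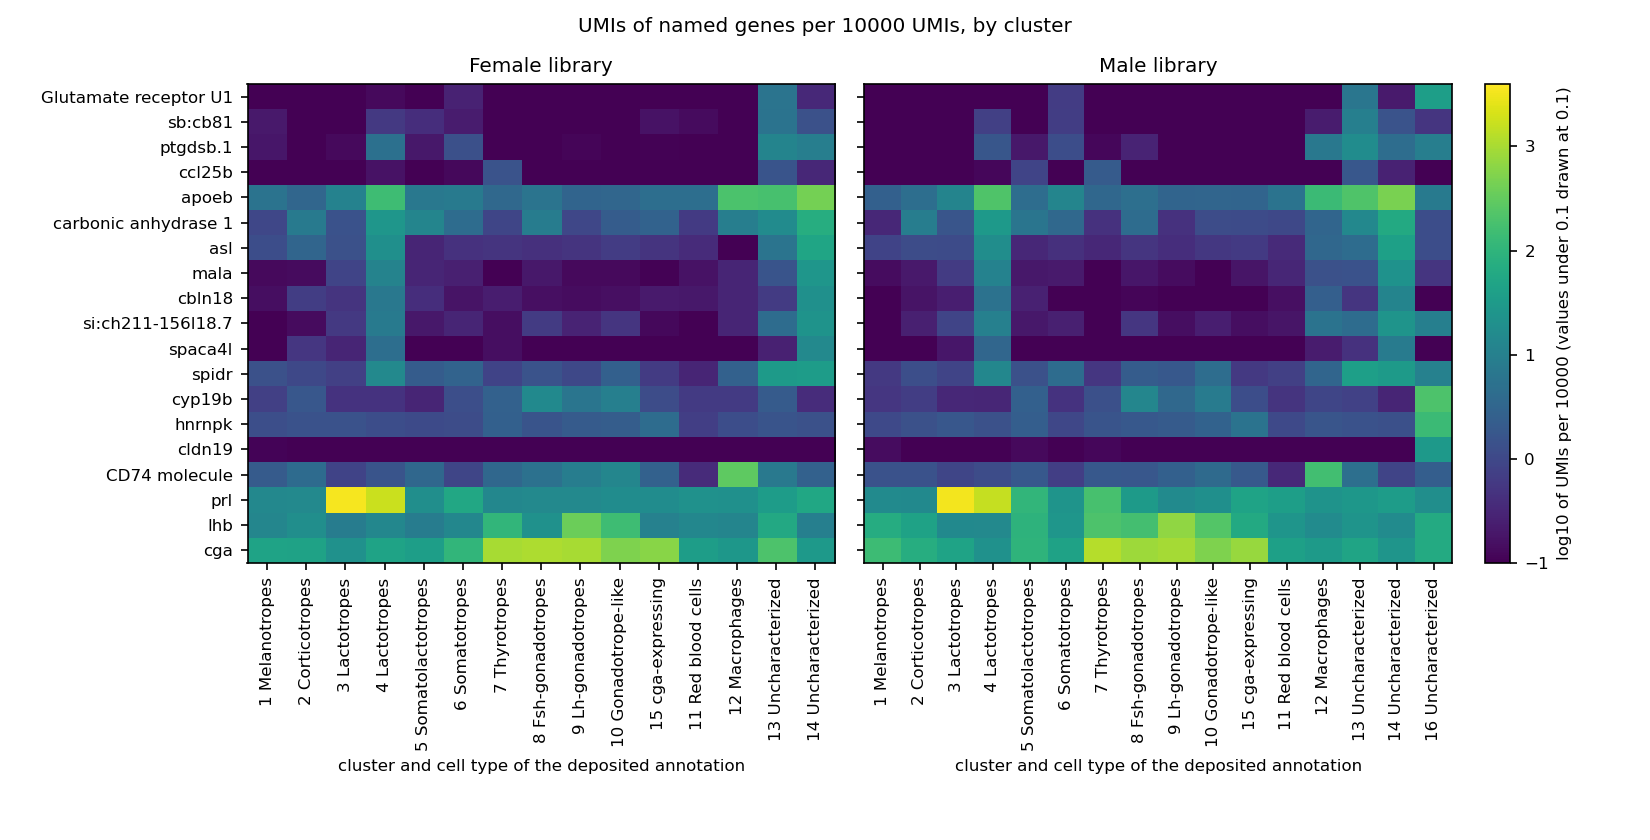
Heat map of the summed level of 19 named genes (rows, colour as log10 of UMIs per 10000) in each annotated cluster (columns) of the female library on the left and the male library on the right. Genes of cluster 14 are also high in lactotrope cluster 4 (apoeb 147 in females and 214 in males) and low in lactotrope cluster 3, and cyp19b, hnrnpk and cldn19 are highest in cluster 16.

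The genes of cluster 14 were not low in all hormone-producing cells. Lactotrope cluster 4, which held 69 female and 222 male cells, carried them too. In lactotrope cluster 4 apoeb was at 147 per 10000 in females, 33.3% of the cluster 14 level, and at 214 in males, 44.7%. For asl the shares were 38.9% and 44.1%. Over 9 named genes they ran from 31.2% (spaca4l) to 52.4% (ptgdsb.1) in females and from 38.9% (ptgdsb.1) upward in males, where mala was highest with 10.95 against 21.9 per 10000. In lactotrope cluster 3, with 123 female and 175 male cells, the same 9 genes were at 1.22% to 3.52% of the cluster 14 level. With lactotrope cluster 4 out of the comparator, the ratios for cluster 14 were 100 in females and 104 in males for apoeb, 73.2 and 74.6 for asl, and 180 and 184 for spaca4l.

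The long lists gave a like picture. The 723 genes called higher in female cluster 14 were measured in the male library, which had no part in choosing them. There their median level in lactotrope cluster 4 was 49.96% of that in male cluster 14 (quartiles 43.4 to 60.2), against 5.89% in lactotrope cluster 3. The 795 genes of male cluster 14, measured in the female library, had a median of 44.3% in lactotrope cluster 4 (35.6 to 53.3) and 4.39% in lactotrope cluster 3. The lists of cluster 13 also stood at 43.6% of their own level in male lactotrope cluster 4 and at 44.6% in the female one, but with wider quartiles, 20.8 to 75.5 and 22.0 to 73.1.

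Cell by cell, lactotrope cluster 4 carried the cluster 14 genes in nearly all of its cells. The list used was the 5 genes that the authors' male marker table gives for cluster 14 (apoeb, carbonic anhydrase 1, asl, si:ch211-156l18.7 and mala), so it was chosen on the male library. After thinning to 1500 UMIs, at least 3 of the 5 were found in 198 of 198 female and 385 of 386 male cells of cluster 14. They were found in 66 of 69 female (95.7%) and 213 of 222 male (95.9%) cells of lactotrope cluster 4, against 9 of 123 (7.32%) and 21 of 175 in lactotrope cluster 3. Without thinning the counts in lactotrope cluster 3 were 45 of 123 and 50 of 175. Lactotrope cluster 4 also held more RNA, with medians of 9911 and 8315 UMIs against 5829 and 3956 in lactotrope cluster 3. Its prl level was 1723 in females and 1566 in males, lower than the 3406 and 3253 of cluster 3. The part of depth in these counts was not tested beyond the thinning. The part of droplets holding more than 1 cell was not tested, since thinning leaves a mixed droplet mixed.

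**Figure D3:**
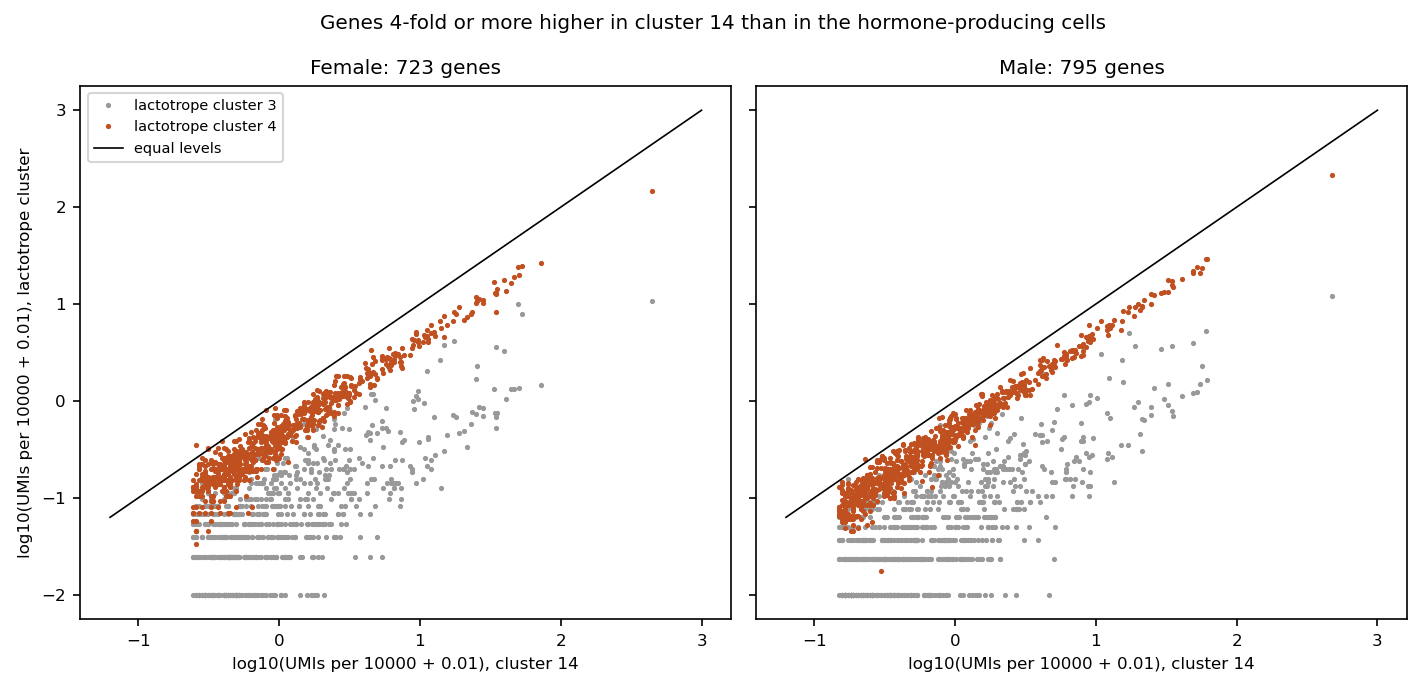
Level of each gene called higher in cluster 14 (723 in the female panel, 795 in the male panel), with its level in cluster 14 on the x axis and in lactotrope cluster 3 (grey) or 4 (orange) on the y axis, both as log10 of UMIs per 10000 plus 0.01; the line marks equal levels. Points of cluster 4 lie below the line in a narrow band and those of cluster 3 lie much lower.

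Cluster 13 shared apoeb with cluster 14 at a lower level. Of its other leading genes, sb:cb81, ENSORLG00000012186 and ptgdsb.1 were also called higher in cluster 14 in both libraries. The apoeb level of cluster 13 was 179 per 10000 (177 to 181) in females and 211 (209 to 214) in males. Cells ranged from 0 through a median of 161 to 1078 in females and from 0 through 185 to 1042 in males, and 99.6% and 99.8% of cells held it. The ratio to hormone-producing cells was 10.4 in females and 5.09 in males. With lactotrope cluster 4 out of the comparator it was 40.6 and 45.7, and asl, at ratios of 2.43 and 1.15 with that cluster in, passed 4-fold at 8.43 and 7.63. The gene spidr, which encodes a scaffold for DNA repair, did not tell the clusters apart, at 32.6 and 39.0 in cluster 13 and 35.3 and 32.5 in cluster 14.

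The gene annotated as Glutamate receptor U1 (ENSORLG00000016860), named for receptors of the transmitter glutamate, had the highest ratio of the named genes in cluster 13. It was at 5.93 per 10000 (5.51 to 6.36) in female cells and 6.42 (6.01 to 6.85) in male cells, 139-fold (101 to 196) and 80.3-fold (66.1 to 98.3) above the hormone-producing cells. It was present in 70.8% of female cells, with a median of 3.91 and a maximum of 44.9, and in 63.2% of male cells, with a median of 4.02 and a maximum of 51.0. In cluster 14, at similar depth, it was found in 6.57% of female and 5.18% of male cells, at 0.34 and 0.21. Cluster 16 had more of it than either, 38.4 per 10000, in 21 of 21 cells.

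Other leading genes of cluster 13 were found in most but not all cells. The level of sb:cb81 was 5.58 and 9.81 in female and male cells, in 58.5% and 65.4% of cells, with ratios of 46.4 and 43.3. In lactotrope cluster 3 it was found in 4.07% and 3.43% of cells. It was more widespread in lactotrope cluster 4, in 34.8% and 39.6% of cells at 0.58 and 0.75 per 10000. In cluster 14 it was in 26.8% and 28.2% of cells at 1.37 and 1.52. An unnamed gene, ENSORLG00000012186, was at 15.2 and 16.2, in 92.8% and 91.7% of cells, with ratios of 34.1 and 20.6. In cluster 14 it was called higher too, at 7.51 and 7.21 in 71.7% and 71.2% of cells, with ratios of 16.9 and 9.16. It was also at 16.3 in the 15 female and 5.71 in the 15 male macrophages.

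Lipocalin-type prostaglandin D synthase (ptgdsb.1), an enzyme of prostaglandin synthesis that also carries small lipids, was at 11.7 and 17.4 per 10000 in cluster 13 and was detected in 72.9% and 66.1% of cells. It was 19.7-fold and 38.0-fold above the hormone-producing cells. It was uneven: the highest male cell reached 326 per 10000, the highest female cell 125, and the 3 cells with most UMIs held 863 of the 2465 male and 145 of the 1526 female UMIs of this gene. Cluster 14 had 9.44 in females and 4.44 in males. The chemokine gene ccl25b was rarer still, in 8.66% and 13.2% of cluster 13 cells at 1.57 and 1.80 per 10000, with 52.5% and 23.4% of its UMIs in a single cell. Thyrotropes were at a like level, 1.53 in females and 2.099 in males, with 52 UMIs in each library. The gene was found in a larger share of thyrotropes than of cluster 13 cells, 23.2% in females and 28.3% in males. It was thus not particular to cluster 13.

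Among the genes low in cluster 13 were hormones of other pituitary cells. Growth hormone (gh) was at 4.59 in female and 9.02 in male cells, 23.7-fold and 22.5-fold lower than in the hormone-producing cells. Somatolactin (sl) was at 2.25 in females, 16.9-fold lower, and at 1.56 in males, 9.03-fold lower. Both hormones were about as low in cluster 14 (gh 5.51 and 8.50, sl 2.53 and 1.41), so this was not particular to cluster 13. The replication gene cdc45 had 2 UMIs in each cluster 13, against 417 in female and 545 in male hormone-producing cells. Of those, 361 and 482 came from the cga-expressing cells alone, and other endocrine clusters were as low, with 8 UMIs in female and 2 in male Lh-gonadotropes. The regulator of G-protein signalling rgs5b had 7 UMIs in females, 10.3-fold lower (4.94 to 25.6), and 4 in males, 20.2-fold lower (7.88 to 74.5), though gonadotropes were as low in it (0.03 in female and 0.05 in male Lh-gonadotropes, against 0.05 and 0.03 in cluster 13).

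Set against each other in females, clusters 13 and 14 differed at 283 of 7902 genes higher in 13 (3.58%) and 231 lower (2.92%). In males the counts were 266 of 7796 (3.41%) and 216 (2.77%). Glutamate receptor U1 was 17.2-fold higher in cluster 13 in females and 30.2-fold in males, and sb:cb81 was 4.06-fold and 6.45-fold higher. In cluster 14, spaca4l was 56.4-fold and 17.8-fold higher, cbln18 32.4-fold and 23.3-fold, mala 16.5-fold and 15.3-fold, and asl 8.68-fold and 9.77-fold. These 6 genes were called in both libraries and in the same direction. Some were called in a single library: the gonadotrope-linked lhb (6.09-fold), cga (6.88-fold) and nr5a1b (5.54-fold) were higher in cluster 13 in females. For lhb and cga few cells carried these calls, since the female medians per cell were close (9.92 and 9.45 for lhb, 30.4 and 25.8 for cga). Without the 32 cluster 13 cells that held at least 200 cga UMIs per 10000, lhb was at 16.1 against 9.64 in cluster 14. The gene nr5a1b was more widespread, in 40.1% of female cluster 13 and 22.7% of female cluster 14 cells. Without the same 32 cells it was at 2.64 against 0.85. The class II antigen genes CD74 molecule (5.45-fold) and Orla-DCA (5.98-fold) were higher in cluster 13 in males. For CD74 molecule, male clusters 13 and 14 were at 4.86 and 0.89 per 10000, with the hormone-producing cells between them at 2.05. In females it was at 7.20 in cluster 13 and 7.26 in hormone-producing cells. Orla-DCA was at 1.03 and 0.17 in male clusters 13 and 14 and at 0.10 in male hormone-producing cells.

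Single cells overlapped little for asl and more for apoeb. The median asl level was 2.56 per 10000 in female cluster 13 and 48.7 in female cluster 14. Only 3 of 277 female and 6 of 410 male cells of cluster 13 lay above the cluster 14 median. No female cluster 14 cell lay below the female cluster 13 median. The male cluster 13 median was 0, so no cell could lie below it. For apoeb, 39 of 277 female and 28 of 410 male cells of cluster 13 lay above the cluster 14 median, and 24 of 198 and 24 of 386 cluster 14 cells lay below the cluster 13 median.

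**Figure D4:**
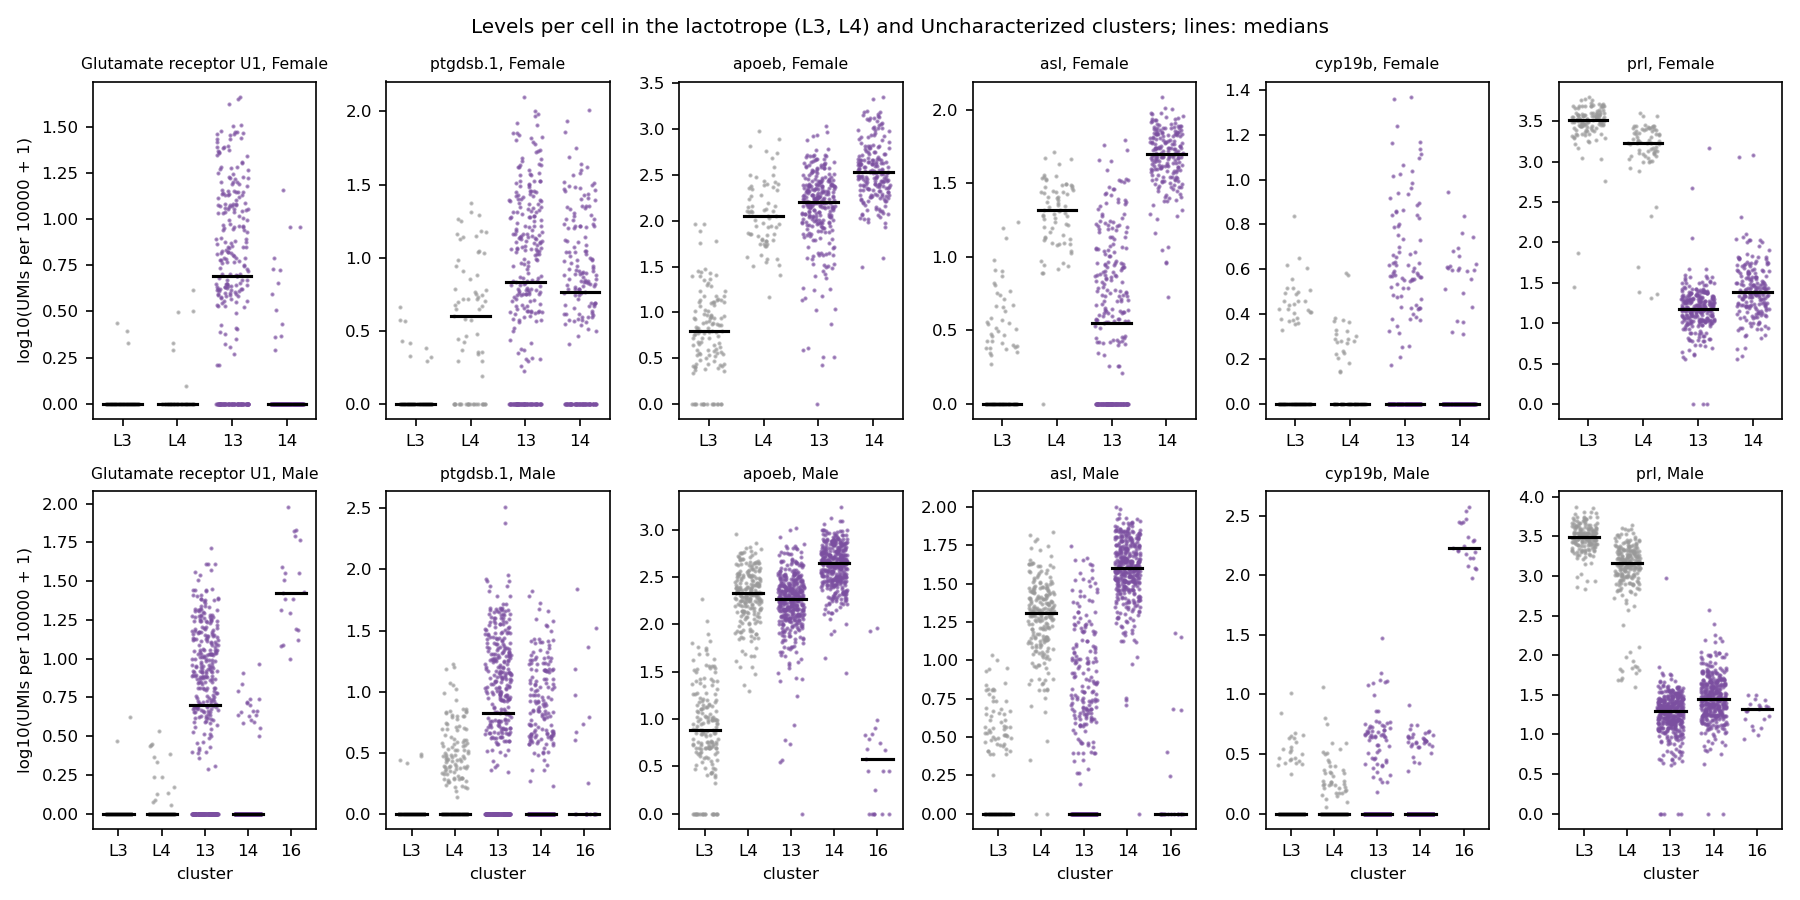
Level per cell, as log10 of UMIs per 10000 plus 1, of Glutamate receptor U1, ptgdsb.1, apoeb, asl, cyp19b and prl in lactotrope clusters 3 and 4 (L3 and L4, grey) and the Uncharacterized clusters (purple), females above and males below, each point a cell and each line the median. Female asl has medians of 2.56 in cluster 13 and 48.7 in cluster 14 with little overlap, while apoeb (161 and 335) overlaps more.

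The marker genes of cluster 13 were found together in fewer of its cells. They are also less abundant than those of cluster 14, so the shares of the clusters cannot be compared as a measure of uniformity. At least 3 of the 5 genes that the male marker table lists for it were found, after thinning, in 114 of 277 female cells (41.2%) and 221 of 410 male cells (53.9%). Without thinning the counts were 191 of 277 (69.0%) and 297 of 410 (72.4%). In cluster 14 the thinned counts were 20 of 198 and 28 of 386, and in lactotrope cluster 3 they were 0 of 123 and 0 of 175 (exact upper limits 2.95% and 2.09%). The cluster 14 list was found in 155 of 277 female (56.0%) and 174 of 410 male (42.4%) cluster 13 cells, unthinned in 221 and 267. Both lists were found in 66 female and 98 male cluster 13 cells, the cluster 13 list alone in 48 and 123, the cluster 14 list alone in 89 and 76, and neither of these nor the cluster 16 list in 74 and 112.

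A further gene was found in some of the cells only. ENSORLG00000027842 had a level of 4.28 per 10000 in female and 11.9 in male cells of cluster 13, but in 18.4% and 31.0% of cells only, with maxima of 146 and 239. Thinned cells with it held Glutamate receptor U1 more often, in 32 of 39 (82.1%, 66.5 to 92.5) against 110 of 238 (46.2%, 39.8 to 52.8) in females and in 86 of 113 (76.1%, 67.2 to 83.6) against 119 of 297 (40.1%, 34.4 to 45.9) in males. They held asl less often, in 28.2% against 47.1% of female and 12.4% against 36.7% of male cells. For sb:cb81 the shares lay close together, 46.2% against 40.8% and 56.6% against 54.5%. These genes were among those used to cluster the cells, so the shares are a description.

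Cluster 16 was small and distinct. By level, the first of the named genes called higher in its 21 male cells was cyp19b, the brain aromatase that turns androgens into estrogens and that in the teleost brain is made by radial glia. Its level was 210 per 10000 (201 to 219), and cells ran from 94.0 through a median of 169 to 374. In the male hormone-producing cells the level was 3.50, so the ratio was 59.9 (56.9 to 63.1). No cell outside the cluster reached its lowest cell: the highest value was 66.2 among 3783 other male cells and 62.1 among 2592 female cells. The gene was picked for its level in these 21 cells, which also set the cut. The separation from other male cells is therefore a description and not a test.

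The RNA-binding protein gene hnrnpk was at 135 per 10000 in cluster 16, from 36.4 through 133 to 289 per cell, and 67.3-fold above the hormone-producing cells. The tight-junction gene cldn19 was at 30.5, from 13.1 through 30.0 to 59.4, and 1197-fold above (849 to 1733), since 37 UMIs were counted in all the male hormone-producing cells. Every cluster 16 cell held both. At least the lowest cluster 16 level of hnrnpk was reached by 2 female and 7 other male cells, and that of cldn19 by 0 female and 2 other male cells, all of them red blood cells, which are shallow (medians 518 and 503 UMIs). No cell outside the cluster reached all 3 levels, where 3 counts among the 2592 female cells would be 0.116%. These genes too were picked for being high in cluster 16, and cldn19 could be considered only through its counts there. Their separation in the male library is likewise a description.

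Cluster 16 cells were not all alike. The cellular retinoic acid-binding protein gene crabp1a is annotated under a pair of identifiers. ENSORLG00000001467 was at 66.9 per 10000 but in 8 of 21 cells, with a maximum of 203 and 70.3% of its UMIs in 3 cells. ENSORLG00000023034 was at 12.3 in 20 of 21 cells. It was not particular to cluster 16, since male cga-expressing cells were at 19.8, with a UMI in 140 of 160 cells. How reads that match both copies were counted is not given in the sources used here. The unnamed ENSORLG00000009780 was at 61.1 in 15 of 21 cells, 248-fold above the hormone-producing cells, but with a median of 5.98 and a maximum of 266. It was also called higher in clusters 13 and 14 of both libraries. Likewise, mt2 had a pooled level of 79.9 but a median of 5.48 and a maximum of 312.

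Cluster 16 was low in most named genes of cluster 14. Its pooled apoeb level was 7.75 per 10000, below the 41.5 of the male hormone-producing cells. It was above the 4.62 that these had without lactotrope cluster 4, so the direction of the pooled level turned with the comparator. Per cell, apoeb had a median of 2.78 and a maximum of 91.6, with a UMI in 15 of 21 cells. No spaca4l UMI was found in cluster 16, asl and carbonic anhydrase 1 were both at 1.22, and mala was at 0.51. Without lactotrope cluster 4 the hormone-producing cells were at 0.55 for asl, 1.62 for carbonic anhydrase 1 and 0.18 for mala. Besides Glutamate receptor U1, several genes of the other clusters were called higher in cluster 16: ptgdsb.1 at 9.38, in 10 of 21 cells, si:ch211-156l18.7 at 9.69 in all 21, and ENSORLG00000027842 at 2.65 in 7. At least 3 of the 5 cluster 14 genes were found in 3 of 21 thinned cells, and at least 3 of the cluster 13 genes in 2 of 21.

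The levels of hormone RNA per cell are set beside those in red blood cells, which make none. The median lhb level per cell was 9.92 in female cluster 13, 9.45 in female cluster 14 and 9.56 in female red blood cells. In males it was 15.04, 16.6 and 19.8 in clusters 13, 14 and 16 and 23.8 in red blood cells. Medians of prl were 14.2 and 23.2 in the female clusters against 21.1 in red blood cells, and 19.0, 26.7 and 19.8 in the male clusters against 38.4. Red blood cells were shallower, with medians of 518 and 503 UMIs.

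The values for pomca, cga and the transgene follow. Medians of pomca were 13.6 and 16.2 in the female clusters against 21.8 in red blood cells, and 24.5, 26.2 and 25.4 in the male clusters against 61.2. For cga they were 30.4 and 25.8 against 34.8, and 22.9, 22.7 and 20.7 against 39.8. For GFP they were 31.3 and 21.9 against 40.0 in females, and 52.2, 45.7 and 48.4 against 132 in males. Each of these medians lay at or below the red blood cell value except lhb in female cluster 13 and prl in female cluster 14.

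The medians of fshb, tshba, sl and gh were 0 or low in the shallow red blood cells, so pooled levels serve for them. In female cluster 14, fshb was at 7.01 against 6.50 per 10000 in red blood cells, gh at 5.51 against 5.35, sl at 2.53 against 3.10 and tshba at 1.003 against 2.79. In male cluster 14, fshb was at 3.57 against 6.91, gh at 8.50 against 12.7 and sl at 1.41 against 2.77, while tshba was at 2.24 against 0.74, and at 0.66 without 1 cell high in it. Apart from that cell, cluster 14 held none of these clearly above the red blood cells per 10000 UMIs, with the same limit of depth.

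Pooled levels were higher where a few cells held much of a hormone. In female cluster 13 pomca was at 65.5 per 10000, with 79.9% of its UMIs in 5 cells, and fshb at 37.3, with 79.6% in 5 cells. In cluster 16 lhb was at 64.7, with 75.2% of its UMIs in 1 cell. At least 500 UMIs per 10000 of 1 of the 7 hormone genes other than cga were found in 9 of 475 female cells (1.89%, 0.870 to 3.57) and 7 of 817 male cells (0.857%, 0.345 to 1.76). They lay mostly in cluster 13, with 7 female and 6 male cells, against 2 and 1 in cluster 14 and 0 of 21 in cluster 16. In females their median depth was 12200 UMIs, against 3371 in the other Uncharacterized cells.

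Female cluster 13 also contained cells high in cga. At least 200 cga UMIs per 10000 were found in 32 of its 277 cells, and in 11 of 410 in males. The female cells of this kind had a median of 8736.5 UMIs against 3422 in the rest, and the male ones 7155 against 2807. They had more of other gonadotrope RNA: lhb was at 191 against 16.1 in females and at 144 against 17.96 in males, GFP at 685 against 77.8 and at 509 against 76.2, and nr5a1b at 11.1 against 2.64 in females. They had less of each gene called higher in the cluster that was compared here. The level of apoeb was 97.0 against 205 in females and 77.5 against 219 in males. Glutamate receptor U1 was at 2.11 against 7.16 in females and 1.96 against 6.65 in males. ENSORLG00000012186 was at 5.19 against 18.4 in females and 4.47 against 16.8 in males. For spidr the levels were 13.5 against 38.8 in females and 14.7 against 40.3 in males. Without the cells high in cga, 340 genes were lower in female cluster 13 in place of 135, and 597 were higher in place of 579. Whether these droplets held more than 1 cell was not tested.

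**Figure D5:**
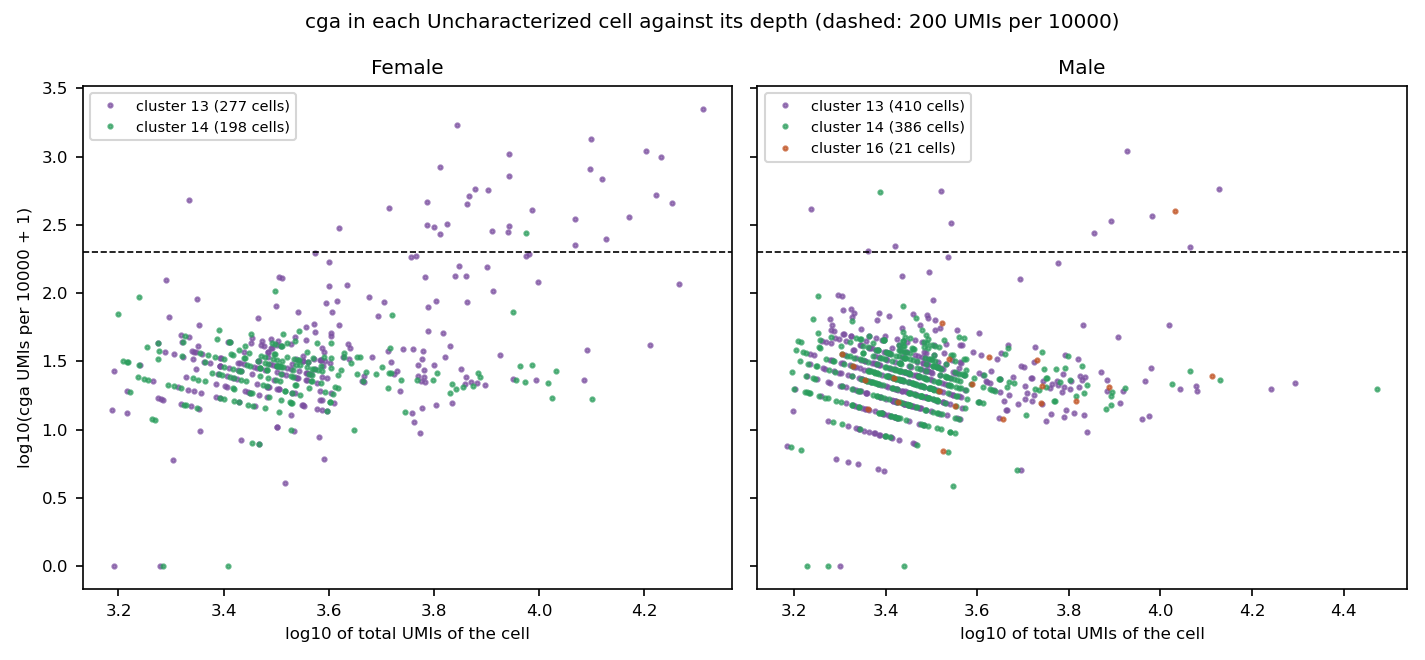
Level of cga per cell (log10 of UMIs per 10000 plus 1) against total UMIs (log10) for cells of clusters 13, 14 and 16, female left and male right, with a dashed line at 200 UMIs per 10000. In cluster 13 the 32 female and 11 male cells above the line have medians of 8736.5 and 7155 UMIs, against 3422 and 2807 below it.

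Few cells of these clusters held sets of blood or immune genes. At least 3 of the 5 genes that the male marker table lists for macrophages were found in 8 of 277 female (2.89%) and 12 of 410 male (2.93%) thinned cells of cluster 13, and in 1 of 198 and 1 of 386 of cluster 14. They were found in 11 and 10 of the 15 macrophages of each library. CD74 molecule, the class II invariant chain, was at 7.20 and 4.86 per 10000 in cluster 13 and at 2.64 and 0.89 in cluster 14, against 291 and 159 in macrophages. Macrophages shared apoeb, at 196 and 134. At least 3 of the 5 red blood cell genes were found in 3 female and 8 male cells of cluster 13, in 2 and 7 of cluster 14 and in 0 of cluster 16. The part of such RNA in the values above was not tested.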

How the data were processed

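Dissociated pituitary cells were profiled with the 10x 3′ v2 kit. The authors deposited gene by cell tables of UMI counts, without normalization, and intron counts apart from them. Cell Ranger and Seurat are named in the submitters' processing notes, without versions. The genome build was not given in the sources used here. Per the study's methods, cells were filtered for quality and those with the highest doublet scores were removed; no doublets were called here. Other deposited values (cell annotation, clusters) were used as labels. The authors' UMAP score columns, mean signal per cluster and p-values were not used. Libraries held 11750195 female and 17691130 male UMIs.

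Counts were summed per cluster in Python 3.11.15 (numpy 2.4.6, scipy 1.17.1, pandas 2.3.3). Fold ratios against hormone-producing cells (deposited counts only) used a floor of 3 counts, at least 10 expected UMIs and a 4-fold threshold. Poisson and Clopper-Pearson intervals are at 95%. The code was tested on simulated data. Genes named are the 12 with the highest ratio per cluster among those with a UMI in at least 25% of cells, where a name was paired (otherwise at most a pair of identifiers), the 6 lowest, the marker-list genes and the 8 hormone genes. Of 80 identifiers 63 had a name, taken from the authors' marker tables. For the hormone genes other than cga and the reference gene rpl7 it came from the paper's primer list. Members and lists were chosen with earlier results of these data known. Alternatives covered filters, scaling, the comparator, deep cells and list size.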

Additional observations from a re-analysis of the deposited data

How the results depend on the processing

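No paired analysis was possible because each sex was 1 library, and for the same reason no replicate could be left out. With red blood cells kept, Uncharacterized cells were 18.3% of female and 21.5% of male cells, cluster 13 was 10.7% and 10.8%, and cluster 14 was 7.64% and 10.1%. With at least 30 expected UMIs, genes higher and lower numbered 326 and 54 in female cluster 13, 402 and 193 in female cluster 14, 419 and 210 in male cluster 13, 504 and 234 in male cluster 14, and 66 and 36 in cluster 16, since fewer genes were considered. With no such filter, 1086, 1259, 1197, 1235 and 903 genes were higher in the same order, and 105 were lower in cluster 16. Genes lower in female cluster 13 numbered 406 by the mean of cells, 240 with hormone genes out of the total, 263 without cells above the 95th percentile of UMIs and, chosen after seeing the data, 340 without the cells high in cga. The likeness of female and male clusters was 0.916 for cluster 13, 0.946 for cluster 14 and 0.585 for clusters 14 and 16 at 30 expected UMIs, and 0.490 for clusters 13 and 16 by the mean of cells. Without lactotrope cluster 4, also chosen after seeing the data, it was 0.523 for female 13 with male 16, 0.774 for female 14 with male 13 and 0.615 for female 14 with male 16. The cluster 13 list at 2 genes was held by 78.0% of female and 84.4% of male cells and at 4 genes by 16.6% and 25.1%, the cluster 14 list at 2 genes by 100% of male cells, and the cluster 16 list at 4 genes by 66.7%. Of 94 alternatives for the gene counts, 74 stayed within 1.5-fold of the count given. The limits are 1 pooled library a sex, 21 cells in cluster 16 and few named genes.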
